A study of Mus musculus with 48 samples.

Results

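Expression of 8 genes of polyamine metabolism (Odc1, Amd1, Amd2, Srm, Sms, Smox, Sat1 and Oaz1) was followed in mouse skeletal muscle across FoxP1 genotype, pancreatic tumor and circadian time. The genes were chosen by name from the 56748 genes of the expression table, and all 8 had enough reads to be tested. The study asked how the transcription factor FOXP1 shapes the circadian muscle transcriptome in mice with cancer, and the measurements are bulk RNA-seq of the tibialis anterior, a fast lower-leg muscle. The 48 libraries came from male mice aged 39 to 55 weeks, with 2 mice in each of 24 groups: WT or FoxP1SkmKO, control or KPC, at CT18, CT22, CT26, CT30, CT34 or CT38. KPC mice received murine KPC pancreatic cancer cells in the pancreas, and control mice received the PBS vehicle by a comparable surgery. The study's methods give the control injection as sterile saline. All mice were in constant darkness when muscle was taken, and circadian time (CT) counts the hours from the former time of lights on. FoxP1SkmKO mice were homozygous for a floxed FoxP1 allele and carried ACTA1-Cre, a Cre recombinase driven by the skeletal actin promoter and therefore active in muscle fibers rather than in the other cells of the muscle. The series description gives WT mice as FoxP1fl/fl without Cre, while the sample labels give their genotype as C57BL/6J. Below, an arm is the 12 libraries of 1 genotype and condition.

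Polyamines (putrescine, spermidine and spermine) are small positively charged amines that bind RNA and DNA and are needed for translation and growth. Cells make putrescine from ornithine through ornithine decarboxylase, extend it to spermidine and spermine with aminopropyl groups from decarboxylated S-adenosylmethionine, and return spermine and spermidine through oxidation and acetylation, while antizyme shuts off synthesis and uptake when polyamines are plentiful. In skeletal muscle the pathway is known for its response to androgens and growth stimuli, and Smox mRNA is known to fall in atrophying muscle. Odc1 and Srm are known targets of MYC, which binds the E-box CACGTG, and the circadian activator CLOCK:BMAL1 binds the same motif.

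The libraries held 14480867 to 20787784 counts in genes, with a median of 16602091. Muscle identity was clear in each arm, since the summed level of 8 fast-fiber markers ranged from 121927 to 152175 CPM (counts scaled to the library total). Whole-gene Foxp1 expression did not separate the genotypes. Its mean was 0.630 ± 0.140 FPKM (fragments scaled to gene length and library total; SD, n = 12) in WT control mice and 0.578 ± 0.0682 in FoxP1SkmKO control mice (edgeR adjusted p = 0.459), and 0.629 ± 0.102 in WT KPC mice and 0.544 ± 0.0744 in FoxP1SkmKO KPC mice (adjusted p = 0.245). A whole-gene value also counts exons outside the deleted part and RNA of cells other than fibers, so genotypes are taken from the labels alone. Summed fibroblast markers had a median of 346 CPM in WT control and 205 in WT KPC mice, and of 301 and 174 in FoxP1SkmKO mice. In bulk RNA, fewer cells of a type and less RNA per cell cannot be told apart.

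Per unit of gene length, the pathway was dominated by Amd1, Oaz1 and Smox. Amd1, which encodes S-adenosylmethionine decarboxylase and so supplies the aminopropyl donor, averaged 171 ± 36.9 FPKM over the 48 libraries (SD) and lay at percentile 98.7 of the 12454 genes with a mean log2 CPM above 0. Oaz1, encoding antizyme 1, which binds ornithine decarboxylase and carries it to the proteasome, averaged 151 ± 13.8 FPKM. Smox, encoding spermine oxidase, which converts spermine back to spermidine, averaged 64.5 ± 14.0 FPKM. The levels of the other enzymes were lower. Odc1, encoding ornithine decarboxylase, averaged 20.2 ± 3.23 FPKM, and Sms, encoding spermine synthase, averaged 14.0 ± 1.75 FPKM. Amd2, a single-exon copy of Amd1, averaged 8.44 ± 1.94 FPKM. Srm, encoding spermidine synthase, and Sat1, encoding the acetyltransferase that marks spermidine and spermine for export or oxidation, were lowest at 4.10 ± 0.613 and 3.89 ± 0.496 FPKM. The order Oaz1, Smox, Odc1, Sms, Amd2 held in 48 of 48 libraries. The ends of the order were less settled, as Amd1 exceeded Oaz1 in 37 of 48 libraries and Srm exceeded Sat1 in 33. Amd1 exceeded Oaz1 in 12 of 12 WT control and 11 of 12 WT KPC libraries, and in 7 of 12 in each FoxP1SkmKO arm.

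**Figure D1:**
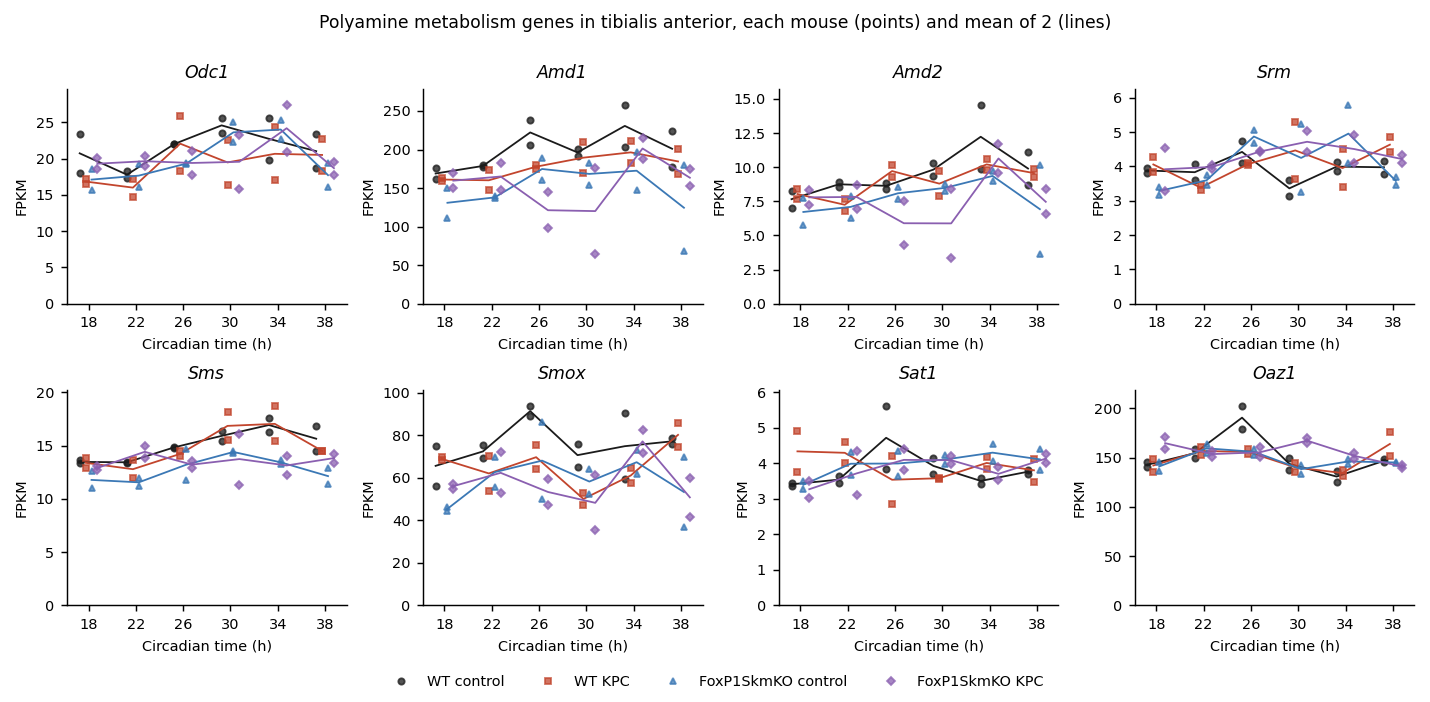
FPKM (y axis, linear, from 0) of each gene against circadian time (x axis, hours) in the 48 mice, with points for single mice, moved slightly sideways by arm, and lines through the mean of the 2 mice of each group. Amd1 and Amd2 have single FoxP1SkmKO mice at CT26, CT30 and CT38, and Smox at CT30 and CT38, that are the lowest of the 48, whereas Oaz1 keeps within 125 to 202 FPKM.

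The Amd1 and Amd2 values cannot be taken as independent measurements. Amd1 lies at chr10:40163454-40178184 on the minus strand (mm39), and Amd2 at chr10:35584671-35587888 on the same strand as 1 exon. In the reference annotation, the Amd2 transcript (3218 bases) aligned to the Amd1 transcript with 8 exons and 3864 bases with 3188 identical bases and 10 mismatches, an identity of 99.7%. Of all 150-base windows of Amd2, 61.6% occurred letter for letter in an Amd1 transcript, and of all 75-base windows, 79.2% did. The Amd2 count was 3.38% to 5.52% of the Amd1 count in every library, with a median of 4.45%. How the authors' counting divided reads that match both genes is not given in the sources used here, so Amd2 is reported as uncertain throughout. The substitution G1127C, counted from 1 at the start of that Amd1 transcript with the Amd1 base first, is the single difference inside the coding sequence of both transcripts. It is shown in capitals in the 30 coding bases around it, at chr10:40166168-40166197 and chr10:35586746-35586775, both on the minus strand of mm39, to let the extent of the likeness be seen.
Amd1: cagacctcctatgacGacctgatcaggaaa
Amd2: cagacctcctatgacCacctgatcaggaaa

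The other members had no such overlap in sequence with another member, and overlapping genes took few reads. A small nucleolar RNA gene within Odc1 (chr12:17594795-17601506, plus strand) averaged 2.71 counts against 1169.6 for Odc1, and the microRNA gene within Oaz1 (chr10:80662490-80665124, plus strand) had 0 counts in the 48 libraries. Srm lies at chr4:148675960-148679450 and Smox at chr2:131333416-131367842, both on the plus strand. Sms lies at chrX:156226851-156275283 and Sat1 at chrX:153996128-153999445, both on the minus strand.

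E-boxes near the gene start were concentrated in 3 of the 8 genes. The window from 250 bases before to 500 bases after the annotated start was searched for CACGTG, which reads the same on both strands, so that 1 search covers both and sites cannot overlap. Srm held 5, Odc1 held 2 and Sms held 1, while Amd1, Amd2, Smox, Sat1 and Oaz1 held 0. Of 21906 protein-coding genes, 13.7% held at least 1 in the same window, 1.74% held at least 2, and 5 genes held at least 5. The stretches below carry the motif in capitals, with both Odc1 sites in an intron of the canonical transcript (exonic in other transcripts), 4 of the 5 Srm sites in an intron (2 of them exonic in other transcripts) and 1 upstream, and the Sms site 196 bases upstream of the start. They are at chr12:17595187-17595216 (plus), chr12:17595227-17595256 (plus), chr4:148676290-148676439 (plus) and chrX:156275449-156275508 (minus) of mm39. A match of letters is a description and not evidence of binding.
Odc1, first site: gggatgtgcggcCACGTGtcgcgaggcccg
Odc1, second site: gccggcaggggaCACGTGgcccgggaccgg
Srm: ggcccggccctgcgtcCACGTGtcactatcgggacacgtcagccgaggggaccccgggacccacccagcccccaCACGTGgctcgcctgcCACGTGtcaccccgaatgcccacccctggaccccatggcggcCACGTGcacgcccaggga
Sms: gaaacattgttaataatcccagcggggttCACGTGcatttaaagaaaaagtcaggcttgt

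Among the synthesis and oxidation enzymes, Sms and Smox were lower in FoxP1SkmKO than in WT mice when no tumor was present. Averaged over the 6 circadian times, Sms was 15.4% lower and Smox 22.0% lower in FoxP1SkmKO control mice. These were 2 of the 8 members called, both in the lower direction, where 3.44% of all 15637 genes tested were called in either direction and 1.58% were called lower. A call here means a Benjamini-Hochberg adjusted p under 0.05 from edgeR's quasi-likelihood test over all genes tested. Amd1, the highest member, was 24.5% lower without passing the test. The median log2 difference of the 8 members was -0.18 against 0.0014 for all genes. This median is a description, as Amd1 and Amd2 share sequence and other sets of 8 genes were not compared.

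Sms, the enzyme that turns spermidine into spermine, was lower in the FoxP1SkmKO control mice at each time. At CT18 its level was 13.3 and 13.6 FPKM in the WT control mice and 12.6 and 10.98 in the FoxP1SkmKO control mice, and at CT22 it was 13.4 and 13.5 against 11.9 and 11.2. At CT26 the values were 14.9 and 14.8 against 14.6 and 11.8, and at CT30 16.4 and 15.4 against 14.5 and 14.3. At CT34 the values were 17.6 and 16.3 against 13.2 and 13.6, and at CT38 16.8 and 14.5 against 12.9 and 11.4. Every FoxP1SkmKO control mouse was below both WT control mice of its own time at 6 of 6 times, although the arms overlap across times, with 10.98 to 14.6 FPKM in FoxP1SkmKO control and 13.3 to 17.6 in WT control mice. Sms-ps, the processed pseudogene of Sms, gave a log2 difference of -0.28 ± 0.062 in this comparison (SE; edgeR adjusted p = 0.0063). The part of reads shared with it in the Sms values was not tested. For Sms itself the log2 difference was -0.24 ± 0.049 (SE; edgeR adjusted p = 0.00353). It stayed between -0.27 and -0.21 when any 1 of the 24 control libraries was left out, with adjusted p from 0.00116 to 0.0148.

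Smox was spread more widely among mice. In WT control mice it ranged from 56.1 to 93.6 FPKM with a median of 75.7, and in FoxP1SkmKO control mice from 36.8 to 86.2 with a median of 58.6. The FoxP1SkmKO mean was below the WT mean at 6 of 6 times, and all FoxP1SkmKO mice were below all WT mice of the same time at 4 of 6. The log2 difference was -0.36 ± 0.10 (SE; edgeR adjusted p = 0.0418). This call rested on single libraries, since it was lost in 17 of the 24 fits that each left out 1 control library (adjusted p from 0.0503 to 0.115). It held only without replicate 2 of WT control at CT18 or CT34, replicate 1 of WT control at CT30, replicate 1 of FoxP1SkmKO control at CT22, CT26 or CT38, or replicate 2 of FoxP1SkmKO control at CT30, and the log2 difference stayed between -0.44 and -0.29.

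Amd1 lay near the threshold. Its level ranged from 162 to 258 FPKM in WT control mice, with a median of 196, and from 68.7 to 197 in FoxP1SkmKO control mice, with a median of 152. All FoxP1SkmKO mice were below all WT mice of the same time at 5 of 6 times. This count and those of Sms and Smox use the same libraries as the test and add no separate support. The share over all genes is not given here. The log2 difference of Amd1 was -0.41 ± 0.12 (SE; unadjusted p = 0.00197, edgeR adjusted p = 0.0538). Without replicate 1 of FoxP1SkmKO control at CT38 it was -0.55 (adjusted p = 0.00153), without replicate 1 at CT18 or CT34 of the same arm the adjusted p was 0.0424 or 0.0494, and without replicate 2 at CT38 it was -0.32 (adjusted p = 0.113). Amd2 followed with -0.29 ± 0.12 (adjusted p = 0.203), and with -0.44 (adjusted p = 0.0115) without replicate 1 of FoxP1SkmKO control at CT38. The remaining members gave smaller differences, none called, with a log2 value of -0.12 ± 0.076 for Odc1, -0.032 ± 0.030 for Oaz1, 0.046 ± 0.079 for Srm and 0.066 ± 0.070 for Sat1.

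With tumors, no member was called between genotypes, where 0.32% of all genes were. Sms had a log2 difference of -0.12 ± 0.049 (edgeR adjusted p = 0.334), and the difference between its genotype effects in KPC and control mice is the same quantity as the difference in tumor effect between genotypes tested further on. Amd2 had -0.26 ± 0.12 (adjusted p = 0.432), Amd1 -0.22 ± 0.12 (adjusted p = 0.513) and Smox -0.18 ± 0.10 (adjusted p = 0.542).

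**Figure D2:**
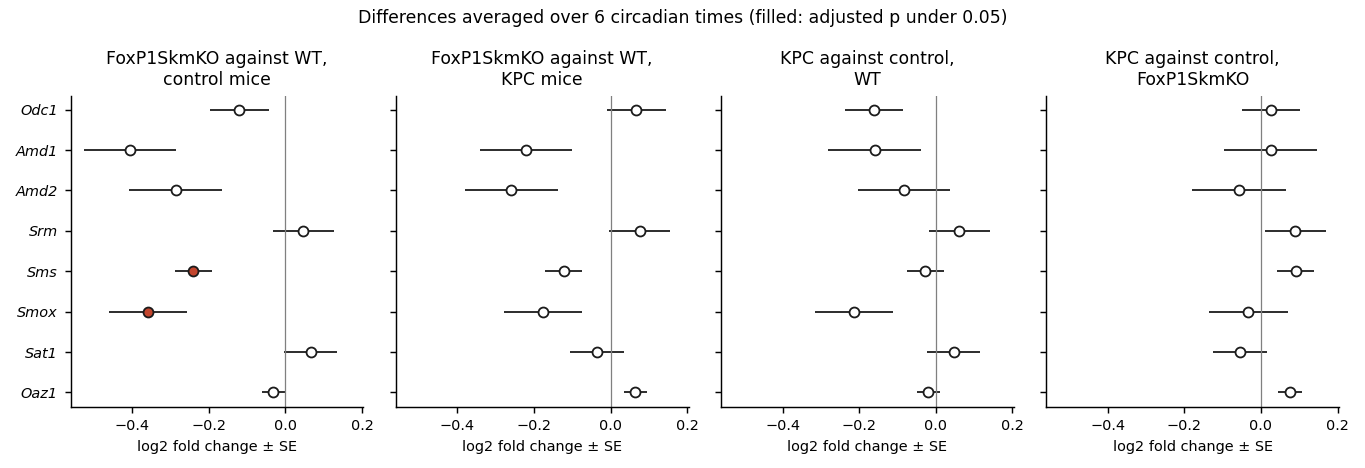
Log2 fold change with its SE (x axis) of each gene (y axis) in 4 comparisons averaged over the 6 circadian times, with filled points where the edgeR adjusted p is under 0.05. Sms and Smox in control mice are the filled points, at -0.24 and -0.36.

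Amd1 and Amd2 had their lowest values in the same 3 FoxP1SkmKO mice, and Smox its lowest in 2 of these. Amd1 was 64.0 FPKM in replicate 2 of the KPC arm at CT30, 68.7 in replicate 2 of the control arm at CT38 and 97.7 in replicate 2 of the KPC arm at CT26, while every WT library was at 147 or above. In these 3 libraries Amd2 was 3.37, 3.67 and 4.27 FPKM, its 3 lowest values of 48, and Smox was 35.3, 36.8 and 47.2 FPKM, ranking 1, 2 and 6 from the lowest. Not all members were low in these mice. Sms ranked 3, 4 and 11 and Odc1 ranked 3, 4 and 31 from the lowest, while Oaz1 ranked 43, 20 and 40, Sat1 28, 44 and 22, and Srm 35, 14 and 37. Fast-fiber markers summed to 140145, 132879 and 149207 CPM in the 3 libraries, inside the range of all libraries, although the third was the highest of its arm. Of the 13 summed marker lists, the KPC library at CT30 was the highest of its arm for slow-fiber (85.9 CPM, arm median 31.6), neutrophil (9.52, median 0.582), adipocyte (13.4, median 5.47) and tendon markers (8.86, median 5.36) and the lowest for endothelial markers (223 CPM, median 292). The control library at CT38 was the highest of its arm for satellite cell (84.2 CPM, median 68.9) and tendon markers (10.52, median 6.04) and the lowest for erythroid markers (97.5, median 154). The KPC library at CT26 was also the highest of its arm for epithelial tumor markers (4.11 CPM, median 0.413) and the lowest for slow-fiber markers (23.97 CPM). The part of any of these in the result was not tested.

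Across the 48 libraries Amd1 correlated with Amd2 at r = 0.93 (log2 CPM; Spearman 0.82) and with Smox at r = 0.73 (Spearman 0.64). Without the 2 libraries farthest from the Amd1 median these became 0.88 and 0.62. Amd1 with Sms gave r = 0.60 (Spearman 0.64) and Odc1 with Sms gave 0.46 (Spearman 0.41). The points share sequencing, depth scaling and the same 24 groups, and Amd1 and Amd2 also share sequence, so these values are a description.

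**Figure D3:**
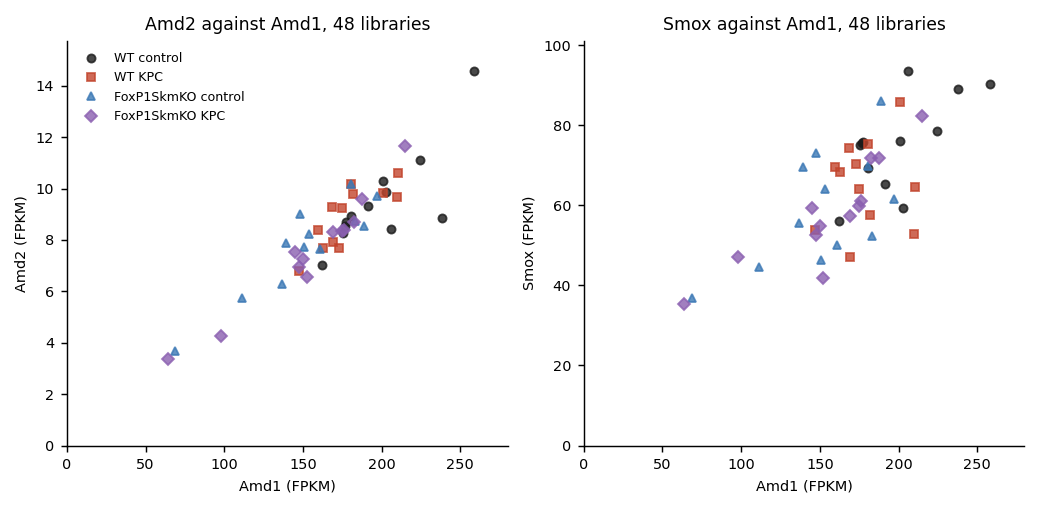
Amd2 (left) and Smox (right) in FPKM (y axes) against Amd1 in FPKM (x axes) in the 48 libraries, each point 1 mouse, with axes from 0. The 3 FoxP1SkmKO mice under 100 FPKM of Amd1 are also the 3 lowest for Amd2.

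Averaged over time, no member was called between KPC and control mice. In WT mice 0 of the 8 members were called, where 1.78% of all genes were. Odc1 ranged from 17.3 to 25.6 FPKM (median 22.0) in WT control and from 14.8 to 25.9 (median 17.7) in WT KPC mice, a log2 difference of -0.16 ± 0.076 (SE; edgeR adjusted p = 0.303). Smox ranged from 47.2 to 86.0 FPKM (median 66.4) in WT KPC mice, a log2 difference from WT control of -0.21 ± 0.10 (adjusted p = 0.309). Amd1 ranged from 147 to 211 FPKM (median 174) in WT KPC mice, with -0.16 ± 0.12 (adjusted p = 0.567), and its KPC mean was below the control mean at 6 of 6 times. These arms overlap for each of the 3 genes. In FoxP1SkmKO mice 0 of 8 were called (0.428% of all genes), and the log2 differences ran from -0.057 for Amd2 to 0.091 for Sms. The smallest adjusted p there was 0.278 for Oaz1, at 0.076 ± 0.030.

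The difference between genotypes in the averaged tumor effect was not called for any member, and for 0.0% of all genes, where 1020 genes had an unadjusted p under 0.05 and DESeq2 called 0. Oaz1 had 0.096 ± 0.043 (edgeR adjusted p = 0.764), Odc1 0.19 ± 0.11 (adjusted p = 0.819) and Sms 0.12 ± 0.069 (adjusted p = 0.819). WT and FoxP1SkmKO effects use separate mice, whereas the tumor effect and the genotype effect in control mice share the control libraries.

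At single circadian times, with 2 mice against 2, only Oaz1 in WT mice at CT26 was called. Oaz1 was 202 and 179 FPKM in the WT control mice and 153 and 158 in the WT KPC mice of that time, so the groups do not overlap, and it fell by 0.30 ± 0.075 on the log2 scale (edgeR adjusted p = 0.0125). At this time 7.17% of all genes were called. In the other 11 single-time comparisons this share was 0.0064% in WT mice at CT30, 0.0256% in WT mice at CT38, 0.0192% in FoxP1SkmKO mice at CT18, 0.0384% at CT26 and 0.0064% at CT38, and 0.0% in the rest. The WT control mice at CT26 were the highest of all 48 libraries for Oaz1, and the FoxP1SkmKO control mice of that time had 153 and 159 FPKM. The call was lost without replicate 1 of WT control (-0.21, adjusted p = 0.316) or replicate 1 of WT KPC (-0.27, adjusted p = 0.117), and after a trend on gene length was removed (-0.19, adjusted p = 0.135). The other members ranged at single times from -0.53 for Amd1 in FoxP1SkmKO mice at CT26 to 0.41 for Srm in WT mice at CT30. For Sat1, whose WT control mice at CT26 had 5.61 and 3.83 FPKM against 4.21 and 2.87 in KPC mice, the log2 difference was -0.42 ± 0.17 (adjusted p = 0.133).

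Over the 6 circadian times, each averaged over the 4 arms, 3 of the 8 members were called, a share near the 40.6% of all genes. They were Oaz1, Sms and Odc1, the antizyme and the enzymes of the last and first synthesis steps. Oaz1 was highest at CT26 with 164 ± 17.6 FPKM (SD, n = 8) and lowest at CT34 with 141 ± 9.96 (edgeR adjusted p = 0.000245). Its CT26 mean includes the 2 WT control mice of that time, the highest of all 48 libraries at up to 202 FPKM. In the other arms the highest single library for Oaz1 was at another time. It was at CT38 in WT KPC (176 FPKM), CT22 in FoxP1SkmKO control (164) and CT18 in FoxP1SkmKO KPC mice (171). Sms was highest at CT30 with 15.2 ± 1.98 FPKM and lowest at CT18 with 12.9 ± 0.886 (adjusted p = 0.00248). Odc1 was highest at CT34 with 22.9 ± 3.47 FPKM and lowest at CT22 with 17.8 ± 1.79 (adjusted p = 0.00856). Amd2 was highest at CT34 with 10.6 ± 1.80 FPKM and lowest at CT18 with 7.55 ± 0.887 (adjusted p = 0.0504), and Amd1 at CT34 with 200 ± 31.5 and CT18 with 155 ± 19.7 (adjusted p = 0.273). Srm, Smox and Sat1 gave adjusted p of 0.102, 0.146 and 0.459. The 3 calls held without any 1 of the 48 libraries, with adjusted p up to 0.00125 for Oaz1, 0.00829 for Sms and 0.0271 for Odc1. No such fit removed both WT control mice at CT26.

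A sinusoid with a period of 24 h, fitted to the 12 FPKM values of each arm, gave its smallest p among the members for Sms in WT control mice. Rhythm was called at an unadjusted p under 0.01 from the F test of the sinusoid, and no member reached an adjusted p under 0.05 in any arm. In WT control mice Sms had an amplitude of 1.77 FPKM around a mean of 15.04 with its peak at CT33.0 (n = 12, p = 0.000796, adjusted p = 0.0791), 1 of the 8 members where 4.92% of all genes were called. In WT KPC mice Sms had an amplitude of 2.24 FPKM and its peak at CT32.4 (n = 12, p = 0.0038, adjusted p = 0.162), where 4.22% of genes were called. The WT KPC call was lost without replicate 2 at CT18 (n = 11, p = 0.0104) or replicate 1 at CT22 (n = 11, p = 0.0135).

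In FoxP1SkmKO control mice the amplitude of Sms was 1.39 FPKM with a peak at CT30.6 (n = 12, p = 0.0161), and in FoxP1SkmKO KPC mice it was 0.197 FPKM (p = 0.942). The 12 FoxP1SkmKO KPC values ran from 11.3 to 16.1 FPKM the highest and the lowest both at CT30. Whether the sinusoid of Sms changed with the tumor was tested directly over the 24 libraries of a genotype, and no change was called in FoxP1SkmKO (n = 24, p = 0.126) or WT mice (n = 24, p = 0.618).

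The fitted peak of Odc1, the first enzyme of the pathway, lay between CT31.4 and CT33.3 in all 4 arms. Its rhythm was called in FoxP1SkmKO control mice, with an amplitude of 3.76 FPKM around 19.9 and a peak at CT31.4 (n = 12, p = 0.00383, adjusted p = 0.164), 1 of the 8 members where 4.07% of genes were called. Leaving out replicate 1 at CT18, replicate 2 at CT22 or replicate 2 at CT30 of that arm moved p to 0.0135, 0.0112 or 0.0139. The amplitude was 2.55 FPKM in WT control (n = 12, p = 0.101), 2.11 in WT KPC (p = 0.396) and 1.47 in FoxP1SkmKO KPC mice (p = 0.534), and no member was called in that last arm, where 2.63% of genes were. Oaz1 was not called rhythmic in any arm, with amplitudes of 19.8 FPKM in WT control (n = 12, p = 0.0442), 7.03 in WT KPC (p = 0.453), 7.09 in FoxP1SkmKO control (p = 0.134) and 5.51 in FoxP1SkmKO KPC mice (p = 0.436).

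**Figure D4:**
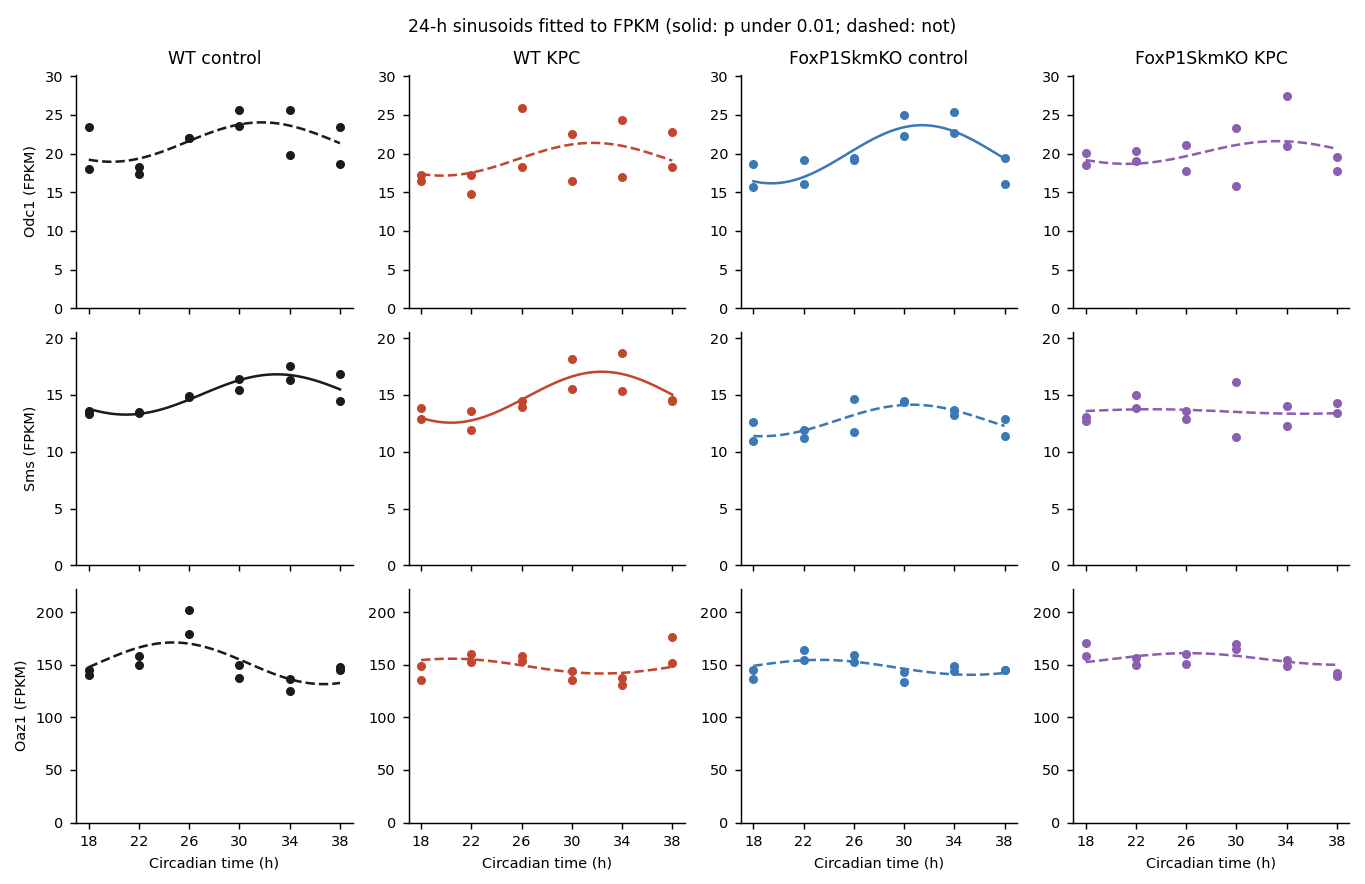
FPKM of Odc1, Sms and Oaz1 (rows, y axes from 0) against circadian time in hours (x axes) in the 4 arms (columns), each point 1 mouse, with the fitted 24-h sinusoid solid where p is under 0.01. The solid curves are Sms in WT control and WT KPC mice and Odc1 in FoxP1SkmKO control mice.

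No member differed in rhythm between control and KPC mice in either genotype at p under 0.05, where 5.07% of genes did in WT and 5.09% in FoxP1SkmKO mice. The smallest values were 0.0931 for Amd1 in FoxP1SkmKO and 0.101 for Sat1 in WT mice. When basal level and amplitude were compared with a likelihood ratio test, the basal level of Amd1 was lower in WT KPC than in WT control mice, at 178 against 200 FPKM (n = 24, p = 0.0257, adjusted p = 0.495), as was that of Smox, at 65.3 against 75.3 (p = 0.041, adjusted p = 0.55), where 8.7% of genes passed. In FoxP1SkmKO mice the basal level of Oaz1 was 156 FPKM in KPC and 148 in control mice (n = 24, p = 0.0436, adjusted p = 0.705), where 6.87% of genes passed. These 3 unadjusted calls were fragile. The p of Amd1 rose above 0.05 without replicate 1 of WT control at CT26 (n = 23, p = 0.052) or replicate 2 at CT38 (n = 23, p = 0.0537), and those of Smox and Oaz1 each did so in 13 of the 24 fits that left out 1 library, with p up to 0.0809 and 0.0853. Amplitude was called for no member, where 2.15% of genes passed in WT and 1.27% in FoxP1SkmKO mice.

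Around the 8 members, 55 further genes of polyamine supply, salvage, transport, hypusine formation and upstream control were listed, of which 50 had enough reads. Between KPC and control mice 2 of the 50 were called in WT mice, where 1.78% of all genes were, and 1 in FoxP1SkmKO mice, where 0.428% were. In WT mice Slc3a2, the heavy chain of amino acid transporters and a proposed polyamine exporter, rose from 7.94 ± 0.810 FPKM in control to 9.41 ± 1.03 in KPC mice (SD, n = 12), a log2 difference of 0.24 ± 0.047 (edgeR adjusted p = 0.00475). Mycn, a MYC family factor, fell by 0.86 ± 0.23 on the log2 scale (adjusted p = 0.0427), at median levels of 0.403 FPKM in control and 0.234 in KPC mice. In FoxP1SkmKO mice Hdac4, a histone deacetylase, was higher in KPC mice by 0.26 ± 0.058 (adjusted p = 0.0307). The other 48 and 49 tested genes did not pass. When each of the 24 libraries of the comparison was left out in turn, the Mycn call was lost 18 times and the Hdac4 call 12 times (adjusted p up to 0.117 and 0.103), while that of Slc3a2 was kept each time.

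Between genotypes in control mice, 3 of the 50 genes were called lower and 1 higher in FoxP1SkmKO mice, where 3.44% of all genes were called and 1.58% were called lower. In KPC mice 0 of the 50 were called, where 0.32% of all genes were. Eif5a, whose protein carries hypusine, an amino acid made from spermidine, was lower in FoxP1SkmKO mice by a log2 difference of -0.12 ± 0.030 (edgeR adjusted p = 0.0184), at 114 ± 6.47 against 124 ± 11.7 FPKM (SD, n = 12). Oat, ornithine aminotransferase, gave -0.19 ± 0.053 (adjusted p = 0.0438), and Apip, of the methionine salvage route that recycles the by-product of spermidine and spermine synthesis, gave -0.23 ± 0.062 (adjusted p = 0.0349). Cdkn1a, the cell cycle inhibitor p21, was higher, at 3.65 ± 1.90 against 1.98 ± 0.719 FPKM (log2 difference 0.79 ± 0.20, adjusted p = 0.0219). When each of the 24 control libraries was left out in turn, the calls of Oat, Apip, Cdkn1a and Eif5a were lost 20, 13, 3 and 1 times, with adjusted p up to 0.125, 0.114, 0.0771 and 0.0594. Leaving CT26 out of the average moved Eif5a to -0.074 (adjusted p = 0.311).

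Time of day reached 27 of these 50 genes, again against 40.6% of all genes. By role, it was called for 11 of 12 upstream factors, 5 of 8 transporters, 3 of 7 genes of S-adenosylmethionine supply, 2 of 7 of methionine salvage, 2 of 4 of acetylation and oxidation, 2 of 4 of hypusine formation, 2 of 3 of the antizyme family and 0 of 5 of ornithine and arginine supply. Slc7a2, a transporter of arginine, ornithine and lysine, was 15.6 ± 4.08 FPKM at CT38 and 7.98 ± 0.702 at CT26 (SD, n = 8; edgeR adjusted p = 3.25e-09). Its rhythm was called in all 4 arms, with peaks from CT35.5 to CT37.8, as was that of Nfe2l2, a stress-response factor, with peaks from CT34.4 to CT35.3. Mat2a, which makes S-adenosylmethionine, was highest at CT38 with 37.3 ± 3.12 FPKM and lowest at CT18 with 31.1 ± 1.77 (adjusted p = 0.000875). Oaz2, the second antizyme, was highest at CT26 with 74.0 ± 6.82 FPKM and lowest at CT18 with 61.8 ± 5.47 (adjusted p = 0.00032). The mean of Oaz1 over the 4 arms was also highest at CT26. Azin1, the antizyme inhibitor, was highest at CT30 with 5.61 ± 0.637 FPKM and lowest at CT18 with 4.14 ± 0.411 (adjusted p = 0.00453). Myc was 1.53 ± 0.492 FPKM at CT38 and 0.913 ± 0.336 at CT26 (adjusted p = 0.00345).

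For each member the 3 genes most alike over the 48 libraries were taken by Pearson correlation of log2 CPM among the 12454 genes with a mean log2 CPM above 0. Copies came first for several. Amd1 was most like Amd2 (0.93) and Amd-ps4 (0.90), a pseudogene on chromosome 4, and then Cdk19 (0.82), which lies on chromosome 10 near Amd1. Sms was most like its pseudogene Sms-ps (0.84), then Gyg (0.81) and Cbfb (0.81), and Oaz1 was most like Gm8730 (0.91), a processed pseudogene, then Fkbp8 (0.84). Reads that match a gene and its pseudogene can be counted for either. Smox was most like Mettl21e (0.78), Slc30a2 (0.75) and Fam131a (0.74), and Srm was most like Tbc1d17 (0.67), Rrs1 (0.64) and Csnk1d (0.63). For Odc1 and Sat1 the highest values were 0.57 for Gm7367 and 0.63 for Rps16-ps2. Of these genes, Slc30a2, Sms-ps, Cdk19 and Cbfb were also called lower in FoxP1SkmKO control mice, where 1.58% of all genes were called lower. Their log2 differences were -0.72, -0.28, -0.28 and -0.22. The genes were chosen by correlation over these same libraries, so their calls and their levels in single libraries are no separate support. In the 3 libraries lowest for Amd1, Mettl21e, a muscle protein methyltransferase, was 0.824, 1.02 and 0.893 FPKM, and Slc30a2 was 1.57, 1.48 and 1.67 FPKM. The libraries share sequencing and groups, and the correlations are a description.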

How the data were processed

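Bulk poly(A)-selected RNA-seq libraries of tibialis anterior (48 libraries, 2 mice in each of 24 groups) were analysed from the tables the authors deposited. The authors aligned reads to mm39, counted them per gene and deposited raw counts, and they deposited FPKM values computed from those counts and the gene length. The study's methods name STAR and HTSeq, while the submitters' processing notes name HISAT2 2.0.5 and DESeq2 1.20.0. Whether the libraries kept strand is not given in the sources used here. Columns with the authors' normalized values, fold changes and p-values were not used.

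Counts were tested with edgeR 4.0.16 (quasi-likelihood test, TMM scaling, filterByExpr, 15637 genes tested, 1 coefficient per group), with Benjamini-Hochberg adjustment over all genes tested. Comparisons were averaged over the 6 times or made at each time, and time of day was an F test. Rhythm was tested on FPKM by least squares with a period of 24 h (SciPy 1.17.1), as were differences in rhythm, and basal level and amplitude by a likelihood ratio test. Alternatives were DESeq2 1.42.0, limma 3.58.1 on log2(FPKM + 1) and log2(FPKM + 0.1), other scaling and filters, a sinusoid in edgeR, and leaving out each library or time. The scripts were tested on simulated data. Sequences are from GRCm39 with GENCODE annotation.

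The named genes are the 8 members, every listed pathway gene that passed a test (given as examples where many did) and up to 3 of the genes most alike to each member (the closest alone for Odc1 and Sat1). A further such gene is not reported here. Members and lists were chosen with earlier results of these data known. Over all genes, same-numbered replicates did not in general deviate together (median correlation -0.0087 over 276 pairs, 24 above 0.1, highest 0.345), so no pairing was used. The 5 libraries lowest for Amd1 were nevertheless all replicate 2 of FoxP1SkmKO mice. A replicate effect limited to these arms or genes was not tested. Each group of 2 separate mice also differed by more than counting error (chi-square per degree of freedom 5.15 to 17.4). No protein sequence was used here.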

Additional observations from a re-analysis of the deposited data

How the results depend on the processing

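Numbers of members called are given. KPC against control in WT mice went from 0 to 3 without the low-count filter, the genotype comparison in KPC mice from 0 to 3, time of day from 3 to 6, single times from 1 to 9 and the genotype comparison in control mice from 2 to 4; in that fit of 33218 genes edgeR's prior degrees of freedom became infinite, so each gene takes a common spread. The genotype comparison in control mice gave 1 with CT18, CT26, CT30 or CT38 left out of the average and 1 with limma at either pseudocount, in each case Sms without Smox (Smox adjusted p 0.0592 to 0.143). Single times gave 0 with the gene-length trend removed, 0 with edgeR and 4 with DESeq2 on the 4 libraries of each comparison. Rhythm went from 3 to 0 at an adjusted p under 0.05 and to 6 with a sinusoid in edgeR, and difference in rhythm from 0 to 3 with the latter. With the replicate number as a block, which does not pair these mice, the genotype comparison in control mice gave 3 (Amd1 added, adjusted p = 0.038), time of day 4 and rhythm 4, and DESeq2 also called Amd1 (adjusted p = 0.0369). Leaving out 1 library gave 1 to 4 for the genotype comparison in control mice, 0 to 1 in KPC mice, 0 to 0 for KPC in WT, in FoxP1SkmKO and for their difference, 3 to 6 for time of day, 0 to 2 at single times, 2 to 4 for rhythm, 0 to 1 for difference in rhythm and 1 to 4 for basal level and amplitude. The log2 differences followed through the alternatives kept their sign. For members these were Sms, Smox, Amd1 and Amd2 between genotypes in control mice, and Odc1, Smox and Amd1 for KPC in WT mice. Oaz1 was followed for KPC in FoxP1SkmKO mice and in WT mice at CT26. Called pathway genes were also followed, and the signs of other values were not. With 2 mice a group, the SE of the single-time log2 difference in WT mice at CT26 was 0.075 for Oaz1 and 0.29 for Amd1, which limits what single times can show.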
